A study of Homo sapiens with 6 samples.

Results

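Antisense lncRNA genes were followed in HEK293T cells treated with valproic acid (VPA). They were the genes whose symbol ends in -AS1, -AS2 or -AS3, without the HOX antisense genes and EPB41L4A-AS1, with a raw count sum of at least 200 over the 6 libraries. Members were thus chosen by symbol and by their summed raw counts, which kept 232 of the 1657 genes with such a symbol, among 47470 genes listed. Of these, 221 end in -AS1, 9 in -AS2 and 2 in -AS3, and they lie on 22 chromosomes. A low gene could therefore enter through the condition in which it was high. The untreated libraries alone gave 213 of the genes at least 100 counts, while 19 were under 100 there and 5 were under 100 in the VPA-treated libraries. The genes just inside the limit were CD101-AS1 and KIAA1614-AS1 with raw sums of 205 each, and those just outside were NAPA-AS1 with 198 and DLX6-AS1 with 195.

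HEK293T cells derive from human embryonic kidney and express the large T antigen of SV40, and their genotype is labelled WT in every library. RNA was sequenced from 3 libraries of untreated cells, called CTRL, and from 3 libraries of cells kept for 1 day in 1 mM VPA, an inhibitor of histone deacetylases. The libraries were strand-specific, and the deposited values are raw read counts per gene. The comparison asks which antisense genes changed under VPA and whether the gene on the other strand changed with them.

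An antisense lncRNA is a non-coding transcript read from the strand opposite to a gene, and it is named after that gene, here called the sense gene. Some antisense genes start back to back with the sense gene at a shared promoter region and are read away from it. Others start inside the sense gene or beyond its end and run across it. Many such RNAs stay in the nucleus at low levels, where the RNA exosome degrades part of them.

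Counts on genes totalled between 18622267 and 18828495 per library, so depth differed little between the conditions. The genes checked as markers of HEK293T cells, PAX2, LHX1, EMX2, SALL1, VIM, KRT8, KRT18 and CDH2, were all detected in both conditions. PAX2 and KRT8 rose by 2.26 and 1.37 on the log2 scale, LHX1 and KRT18 by 0.79 and 0.22, and CDH2, VIM and SALL1 were at -0.37, -0.27 and -0.16. Of the 8 genes that mark other cell types, PTPRC, CD3E, PECAM1, ALB, HBA1 and INS had mean normalized counts between 0 and 3.8. MYOD1, a muscle factor, was at 2.44 in CTRL and 34.9 in VPA, and GFAP, an astrocyte gene, at 13.2 and 41.3. Their part in the results below was not tested. In bulk RNA, fewer cells of a type and less RNA per cell cannot be told apart. The labels do not say that the libraries came from separate cultures, so p-values measure only the spread between these libraries. Neither the annotation nor the use of strand in the counting is given in the sources used here. Reads over exons on both strands may thus have been counted for the antisense gene, for the other gene, or set aside as ambiguous.

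With the study's limits on the adjusted p (0.05) and on the log2 fold change (1 or more up or down), 13 of the 232 antisense genes were up-regulated in VPA-treated cells and 4 were down-regulated (edgeR's quasi-likelihood test with Benjamini-Hochberg adjustment over 15298 genes tested). That is 5.6% up and 1.72% down, beside 12% and 0.503% of all genes tested. At the adjusted p alone, 66 antisense genes were higher and 39 lower, or 28.4% and 16.8%, beside 32.9% and 30.0% of all genes. DESeq2 gave 43 higher and 26 lower. The 3 VPA libraries lay above the 3 CTRL libraries in 72 antisense genes (31.0%) and below them in 44 (19.0%), beside 34.8% and 31.0% of all genes. The median log2 fold change was 0.05 over the antisense genes and 0.0058 over all genes. With DESeq2 the order was the other way, at 0.02 and 0.08, and so with no filter, at 0.03 and 0.08. In both of these, all genes include those under the count filter. The split of higher and lower genes moves with the scaling, with 92 higher and 19 lower when libraries were scaled by their totals and 82 and 27 by the upper quartile.

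A larger share of low-count genes of any kind was up-regulated than of antisense genes. Among the 2628 tested genes of any kind with a raw sum between 200 and the antisense genes' upper quartile of 952.75, 27.0% were up-regulated and 0.647% down-regulated, and the median change was 0.36 on the log2 scale. In the same range of counts, 12 of 174 antisense genes (6.9%) were up and 3 (1.72%) down, with a median of 0.06. At the adjusted p alone, 52 of the 174 (29.9%) were higher and 20 (11.5%) lower, beside 51.1% and 9.51% of all genes in the range. The VPA libraries lay above the CTRL libraries in 56 (32.2%) and below them in 25 (14.4%), beside 53.6% and 10.4%. Protein-coding genes in that range were up in 35.8%, while other lncRNA genes were up in 7.89%, with medians of 0.58 and 0.13. By symbol, 5 of 97 LINC genes, 4 of 81 divergent transcript (-DT) genes and 1 of 33 small RNA host genes (SNHG and MIRHG) were up, with medians of 0.19, 0.05 and -0.31. These are counts beside each other, and no test was run between the classes. The plot of log2 fold changes shows the 3 distributions.

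**Figure D1:**
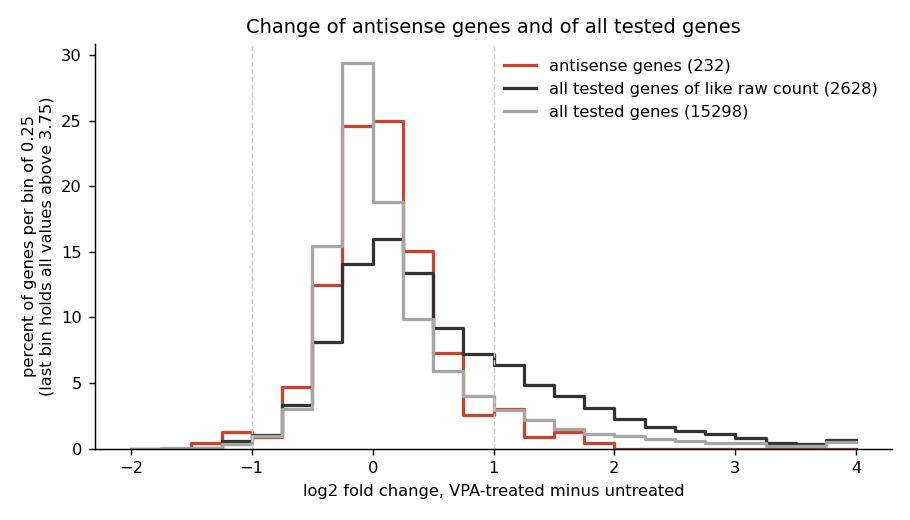
The horizontal axis is the log2 fold change of VPA-treated minus untreated cells and the vertical axis the percent of genes in each bin, for the 232 antisense genes, the 2628 genes of like raw count and all 15298 tested genes, with dashed lines at the thresholds. The antisense genes end at 1.77, while the genes of like count extend beyond that.

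The antisense genes together took 0.186%, 0.179% and 0.176% of the counts in CTRL and 0.198%, 0.192% and 0.194% in VPA, so the groups did not overlap. After TMM normalization, which scales the libraries to each other, their summed counts were 36067, 35198 and 34708 in CTRL and 35417, 34406 and 34601 in VPA, and the groups overlapped. Antisense genes with at least 1 count, out of the 1657 listed, numbered 841, 837 and 835 in CTRL and 894, 901 and 888 in VPA. Over all listed genes those with a count also became more, from 20916, 20782 and 20719 to 22425, 22279 and 22335.

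SOX21-AS1 (chr13:94712716-94715945, plus strand, GRCh38.p14) had the smallest adjusted p among the antisense genes. All coordinates here are those of RefSeq on this build. Its normalized counts were 114, 107 and 103 in CTRL and 309, 310.2 and 318 in VPA. The groups stood far apart, with a log2 fold change of 1.53 ± 0.09 (SE, n = 3 libraries per group, edgeR adjusted p = 2.91e-12). SOX21, the transcription factor of neural progenitors that starts on the other side of a short gap, counted 80.8, 69.1 and 76.6 in CTRL and 233, 244 and 245 in VPA. Its log2 fold change was 1.67, and the ratio of SOX21-AS1 to SOX21 was between 1.34 and 1.55 in CTRL and between 1.27 and 1.33 in VPA. These ratios did not overlap, though by little, and an exact permutation test of 3 against 3 gave p = 0.1, the smallest it allows.

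HHIP-AS1 (chr4:144642916-144646019, minus strand) starts back to back with HHIP, a membrane protein that binds hedgehog ligands. It counted 29.0, 17.8 and 25.2 in CTRL and 47.9, 59.7 and 42.1 in VPA, a log2 fold change of 1.05 ± 0.21 (edgeR adjusted p = 1.87e-04). HHIP rose by 1.47, from 90.4 ± 7.44 to 250.1 ± 13.9 (mean ± SD, n = 3). HHIP-AS1 stays past the adjusted p but falls under the threshold on size without CTRL replicate 2, at 0.87, or without VPA replicate 2. FOXD3-AS1, beside the neural crest factor FOXD3, counted 79.7, 73.3 and 66.1 in CTRL and 125, 127 and 126 in VPA. It rose by 0.79 and FOXD3 by 0.65, under the threshold on size but without overlap of the groups. DSP-AS1, beside the desmosome gene DSP, moved the other way, from 106, 96.3 and 103 to 74.7, 66.5 and 63.2, with log2 fold changes of -0.58 for DSP-AS1 and -0.41 for DSP.

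The bases between the start sites of such back-to-back pairs are shown because antisense and sense RNA are both read outward from them. In 10 pairs whose starts lie within 251 bases, both genes passed the adjusted p of 0.05. In 6 of these the genes changed in the same direction and in 4 in opposite directions. In these 4 the sense changes were small, at -0.18 for CCNT2, -0.15 for DICER1, 0.15 for TRAM2 and -0.13 for ZBED5. Scaling by library totals moves the median of all genes by about as much, to 0.14. With that scaling the opposite pairs of any arrangement went from 27 to 17, so the label depends on the scaling. The 4 same-direction pairs and the 2 opposite pairs with the largest antisense change are printed from RefSeq on GRCh38.p14, a choice made after their values were seen. They run 5′ to 3′ on the strand of the antisense gene, so that the antisense RNA starts at the base after the last one. DSP-AS1 and FOXD3-AS1 have further starts inside the sense gene, so the stretches shown for them lie within the whole span of the antisense gene. Capitals mark TATAAA, the core of the TATA box, and likewise CCAAT for the CCAAT box and GGGCGG for the GC box, each searched on both strands. Where matches overlap, their capitals run together.

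The same-direction pairs were SOX21-AS1, HHIP-AS1, FOXD3-AS1 and DSP-AS1.
SOX21-AS1, chr13:94712546-94712715, plus strand: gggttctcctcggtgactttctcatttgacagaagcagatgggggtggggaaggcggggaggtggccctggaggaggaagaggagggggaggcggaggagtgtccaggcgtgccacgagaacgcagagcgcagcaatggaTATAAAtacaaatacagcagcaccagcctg
HHIP-AS1, chr4:144646020-144646155, minus strand: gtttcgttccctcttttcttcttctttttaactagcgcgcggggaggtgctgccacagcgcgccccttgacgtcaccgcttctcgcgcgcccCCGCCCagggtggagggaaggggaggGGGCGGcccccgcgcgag
FOXD3-AS1, chr1:63322459-63322566, minus strand: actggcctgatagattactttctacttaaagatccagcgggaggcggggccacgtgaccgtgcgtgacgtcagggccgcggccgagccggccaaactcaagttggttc
DSP-AS1, chr6:7541425-7541670, minus strand: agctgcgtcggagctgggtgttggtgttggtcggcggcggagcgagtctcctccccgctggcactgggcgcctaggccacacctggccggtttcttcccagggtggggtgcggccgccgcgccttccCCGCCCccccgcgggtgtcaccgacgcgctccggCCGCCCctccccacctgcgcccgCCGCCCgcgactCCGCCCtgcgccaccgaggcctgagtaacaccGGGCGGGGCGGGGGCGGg

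The opposite pairs were ZBED5-AS1 and TRAM2-AS1.
ZBED5-AS1, chr11:10858054-10858216, plus strand: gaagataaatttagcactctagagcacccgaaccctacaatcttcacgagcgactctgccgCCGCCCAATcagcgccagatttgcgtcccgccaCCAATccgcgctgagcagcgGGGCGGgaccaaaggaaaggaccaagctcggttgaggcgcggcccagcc
TRAM2-AS1, chr6:52577061-52577201, plus strand: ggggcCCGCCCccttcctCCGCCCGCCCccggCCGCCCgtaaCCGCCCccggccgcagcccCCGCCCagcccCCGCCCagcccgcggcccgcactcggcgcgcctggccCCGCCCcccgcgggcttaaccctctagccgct

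The gap of SOX21-AS1 held the TATA core and no GC core, that of FOXD3-AS1 held none of the 3, and those of DSP-AS1 and TRAM2-AS1 held 7 and 8 GC cores. ZBED5-AS1 counted 71.4, 94.2 and 78.7 in CTRL and 130.3, 129 and 115 in VPA, a rise of 0.61, while ZBED5, a gene derived from a transposase, was at -0.13. TRAM2-AS1 fell from 69.4, 85.8 and 71.4 to 50.8, 55.9 and 52.7, by 0.51 on the log2 scale, and TRAM2, a protein of the endoplasmic reticulum translocon, was at 0.15. Both sense changes passed the adjusted p and were small.

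Start windows of 250 bases before to 50 after the start were found for 185 of the 232 antisense genes. Their median GC content was 65.3% with 24 CpG sites, beside 65.0% and 25 for 194 sense genes and 58.3% and 14 for 27305 genes of the RefSeq table. TATAAA stood in 3.78% of the antisense windows, CCAAT in 33.5% and GGGCGG in 61.6%, beside 12%, 35.7% and 44.6% of all windows. The 7 up-regulated antisense genes with a window had a median GC content of 61.0% and 17 CpG sites.

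The other up-regulated antisense genes were lower in count. DLG5-AS1 (chr10:77926812-77929825, plus strand) had the largest log2 fold change, and none of its exon bases lie under an exon of the other strand. It counted 19.7, 16.7 and 21.0 in CTRL and 59.4, 58.8 and 78.5 in VPA, a change of 1.77 ± 0.20 (edgeR adjusted p = 1.27e-07). DLG5, a scaffold protein of cell polarity, was at 2506 ± 28.5 in CTRL and 2516 ± 130.1 in VPA (mean ± SD, n = 3), a log2 fold change of 0.01 (edgeR adjusted p = 0.919).

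SNTG2-AS1 (chr2:949634-951392, minus strand) counted 55.9, 67.0 and 63.0 in CTRL and 128.4, 123.3 and 155.1 in VPA, a log2 fold change of 1.13 ± 0.13. SNTG2, a syntrophin, rose by 1.27, and the ratios overlapped.

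FEZF1-AS1 (chr7:122303658-122310077, plus strand) counted 18.6, 19.9 and 16.8 in CTRL and 64.2, 60.7 and 46.9 in VPA, a log2 fold change of 1.63 ± 0.21. FEZF1, a zinc finger factor of the forebrain, was between 0 and 4.79 in every library and was not tested. SPATA3-AS1 (chr2:230984368-230996032, minus strand) rose by 1.10, from 29.0, 19.9 and 22.0 to 52.7, 53.0 and 46.9, while the testis gene SPATA3 had a count of 0 in all 6 libraries. TMC3-AS1 counted 71.4, 34.5 and 48.3 in CTRL and 107, 100.2 and 112 in VPA, a change of 1.05, and it lay outside the rule for named genes as the smallest of the 13 rises. Its sense gene TMC3 was too low to be tested. In these 3 loci the antisense gene had the higher count in every library.

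EML2-AS1 (chr19:45641494-45642840, plus strand) rose by 1.43 ± 0.17, from 27.2 ± 2.95 to 73.2 ± 3.16. Exons of EML2, a microtubule-binding protein gene that rose by 0.45, cover 95% of its exon bases, so this count is uncertain if the counting did not use strand. INKA2-AS1 (chr1:111739841-111747798, plus strand) counted 19.7, 22.0 and 16.8 in CTRL and 43.1, 39.5 and 69.9 in VPA, with 1 VPA library well above the others. Its log2 fold change was 1.38 ± 0.24, and that of INKA2, an inhibitor of the PAK4 kinase, was 0.98. Exons of the other strand that are not INKA2's cover 68.1% of its exon bases. SLC44A3-AS1 (chr1:94616352-94820232, minus strand) rose by 1.18, and SLC44A3, a choline transporter-like gene, by 0.82.

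RAB6C-AS1 rose by 1.12, from 28.0, 31.4 and 24.1 to 60.4, 54.9 and 66.1, and RUNDC3A-AS1 also by 1.12, from 23.8, 18.8 and 26.2 to 54.6, 45.3 and 49.8. Their sense genes, the small GTPase gene RAB6C and the neuronal RUN domain gene RUNDC3A, had log2 fold changes of 0.43 and 0.28 that did not pass the adjusted p. Of the 10 up-regulated antisense genes with a tested sense gene, the sense gene was higher at the adjusted p in 7 and did not pass in 3. Among all 214 tested sense genes 26.6% were higher, and among all tested genes 32.9%. No test was run on this difference. Of the 13 up-regulated genes, 10 had under 100 counts over the CTRL libraries, so the VPA libraries gave most of the counts of these 10. Without CTRL replicate 2, RUNDC3A-AS1, SPATA3-AS1 and TMC3-AS1 also fell under the threshold on size, at 0.98, 0.98 and 0.82. TMC3-AS1 lost its call without CTRL replicate 3 too.

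**Figure D2:**
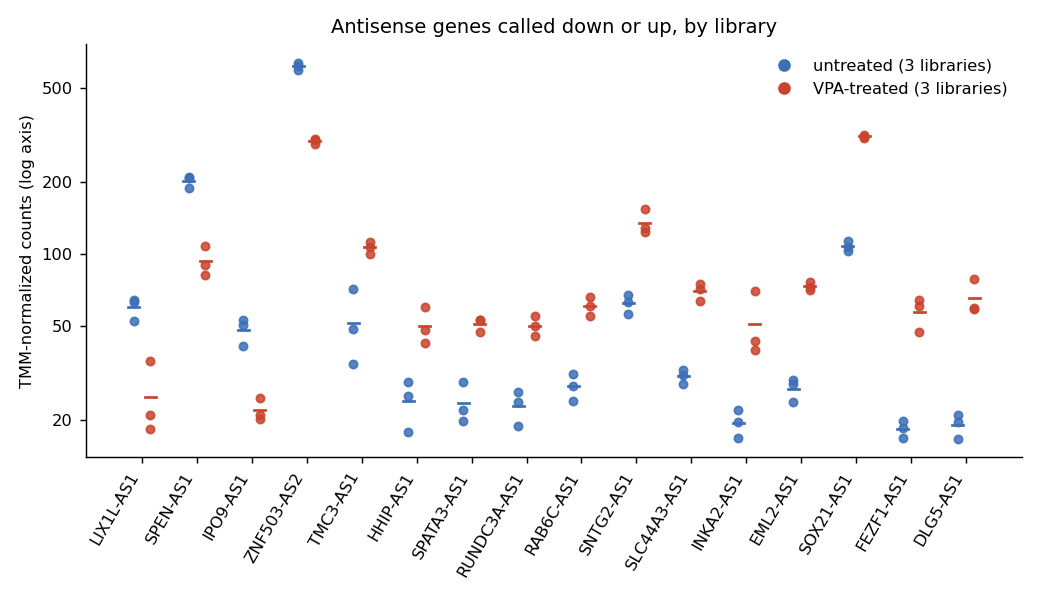
Normalized counts on a log axis of 16 of the 17 called antisense genes, with 1 point per library, a bar at the mean of 3, untreated in blue and VPA-treated in red. The 4 genes on the left fell and the others rose, and in none do the groups overlap.

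ZNF503-AS2 (chr10:75401528-75408982, plus strand) was the highest of the 4 down-regulated genes. It counted 637, 617 and 596 in CTRL and 290.4, 301 and 305 in VPA, a log2 fold change of -1.04 ± 0.06 (edgeR adjusted p = 6.77e-12). ZNF503, a zinc finger repressor of developing tissues, fell by 0.70 on the log2 scale. The ratio of ZNF503-AS2 to ZNF503 was between 0.0995 and 0.118 in CTRL and between 0.0789 and 0.0915 in VPA.

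SPEN-AS1 (chr1:15834215-15848147, minus strand) counted 211, 209 and 190.0 in CTRL and 108, 89.6 and 81.4 in VPA, a log2 fold change of -1.13 ± 0.11 (edgeR adjusted p = 1.71e-08). SPEN, a large corepressor of transcription, was far higher, at 15121 ± 467 and 6609 ± 72.8, and fell by 1.19. The ratio stayed between 0.0125 and 0.0162 in all 6 libraries, with overlap of the groups, and SPEN exons cover 33.6% of the SPEN-AS1 exon bases. Among the named genes, others with a CTRL ratio near this were BAZ1A-AS1, DSP-AS1 and VIM-AS1, with CTRL means of 0.0138, 0.0141 and 0.0148 and VPA means of 0.0122, 0.0126 and 0.0117. In these 3 the ratios also overlapped, and exons of the sense gene cover 44.9%, 6.16% and 30.9% of the antisense exon bases. LIMD1-AS1 and ADGRL1-AS1 also stood near it in CTRL, at means of 0.0139 and 0.0151, but went to 0.0339 and 0.00673 in VPA without overlap, and sense exons cover 69.6% and 14.7% of their exon bases. Whether reads of the sense genes entered these counts was not tested.

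LIX1L-AS1 (chr1:145926831-145941203, plus strand) had the largest fall. It counted 64.2, 62.8 and 52.5 in CTRL and 35.5, 18.3 and 21.1 in VPA, a log2 fold change of -1.26 ± 0.21, with LIX1L at 0.03. IPO9-AS1 (chr1:201688256-201829559, minus strand) counted 52.8, 50.2 and 40.9 in CTRL and 24.9, 20.2 and 21.1 in VPA, a log2 fold change of -1.12 ± 0.20. IPO9, a nuclear import receptor, was at -0.05 and did not pass. When scaled by library totals, which moves the median of all genes to 0.14, ZNF503-AS2, SPEN-AS1 and IPO9-AS1 were at -0.91, -0.996 and -0.99 and lost the call on size, and LIX1L-AS1 kept it at -1.13.

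Smaller falls that passed the adjusted p followed. ARHGAP5-AS1 was at -0.62, with ARHGAP5, a GTPase-activating protein, at -0.25. BAZ1A-AS1 was at -0.64, and BAZ1A, a subunit of the ACF chromatin remodeller, at -0.47. BAZ1A-AS1 no longer passed with DESeq2 (adjusted p = 0.0665), without CTRL replicate 1 or without VPA replicate 2. VIM-AS1 counted 177, 192 and 109 in CTRL and 119, 107 and 86.2 in VPA, and the groups overlapped although it passed at -0.62, with the filament gene VIM at -0.27. Scaled by library totals, VIM-AS1 was at -0.48 and no longer passed (edgeR adjusted p = 0.0521). ST20-AS1 was at -0.54, with ST20 at -0.03.

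A sense gene of the same name was listed for 231 of the 232, and 214 of these were tested. Of the 214 sense genes, 21 were up (9.81%), 3 down (1.4%), 57 higher (26.6%) and 96 lower (44.9%) at the adjusted p alone, beside 12% up, 0.503% down, 32.9% higher and 30.0% lower among all tested genes, with a median log2 fold change of -0.10. Scaled by library totals, 78 sense genes were higher and 51 lower, with a median of 0.03, and by the upper quartile 65 and 69, with a median of -0.04. Of the antisense genes in the 214 tested pairs, 59 were higher and 37 lower at the adjusted p. How many pairs unrelated genes with these counts would give was not computed. In 43 pairs both genes passed the adjusted p in the same direction, 24 higher and 19 lower. In 27 pairs they passed in opposite directions, with the antisense gene higher and the sense gene lower in 19 and the reverse in 8. DESeq2 gave 28 pairs in the same and 14 in opposite directions, and scaling by library totals 43 and 17. The antisense gene alone passed in 26 pairs, the sense gene alone in 83 and neither in 35. Both genes were called at both thresholds in 5 pairs, each in the same direction, and those of SOX21, HHIP, SNTG2 and SPEN are 4 of them.

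Across the 214 pairs the antisense and sense log2 fold changes had a Pearson coefficient of r = 0.30 and a Spearman coefficient of 0.23. This is across genes measured in the same 6 libraries, and genes are not independent replicates. The 214 include 1 pair that the reference places on the same strand, that of FAM131B, the sense gene with the largest rise. Coefficients without that pair were not computed, and it is in none of the arrangements below. Starts within 1000 bases and pointing apart were found in 59 tested pairs, with r = 0.54 and a Spearman coefficient of 0.32. Starts within 1000 bases whose genes overlap there were found in 30 pairs, with r = 0.45 and a Spearman coefficient of 0.15. Starts farther apart in overlapping genes gave 53 pairs with r = 0.34 and a Spearman coefficient of 0.22, and 11 pairs with no overlap had r = -0.49 and a Spearman coefficient of -0.75. The 60 pairs with a start not in the RefSeq table had r = 0.20 and a Spearman coefficient of 0.24, with 5 antisense genes up and 1 down. Where a gene has several starts, the closest pair was taken. Among all tested genes, 12% were up and 0.503% down at both thresholds, and 32.9% higher and 30.0% lower at the adjusted p. The called antisense genes in each arrangement are few beside these shares. In the 59 pairs pointing apart, the called antisense genes were 3, each of them up, with 16 higher and 3 lower at the adjusted p. In the 30 overlapping at the start, 2 were up and 3 down, with 7 higher and 10 lower, and 19 of their sense genes were lower and 1 higher. Of the sense genes in the 59 pairs pointing apart, 30 were lower and 12 higher. In the 53 overlapping pairs with starts farther apart, 19 were lower and 20 higher, and in all 214 pairs 96 and 57. No test was run between these arrangements.

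**Figure D3:**
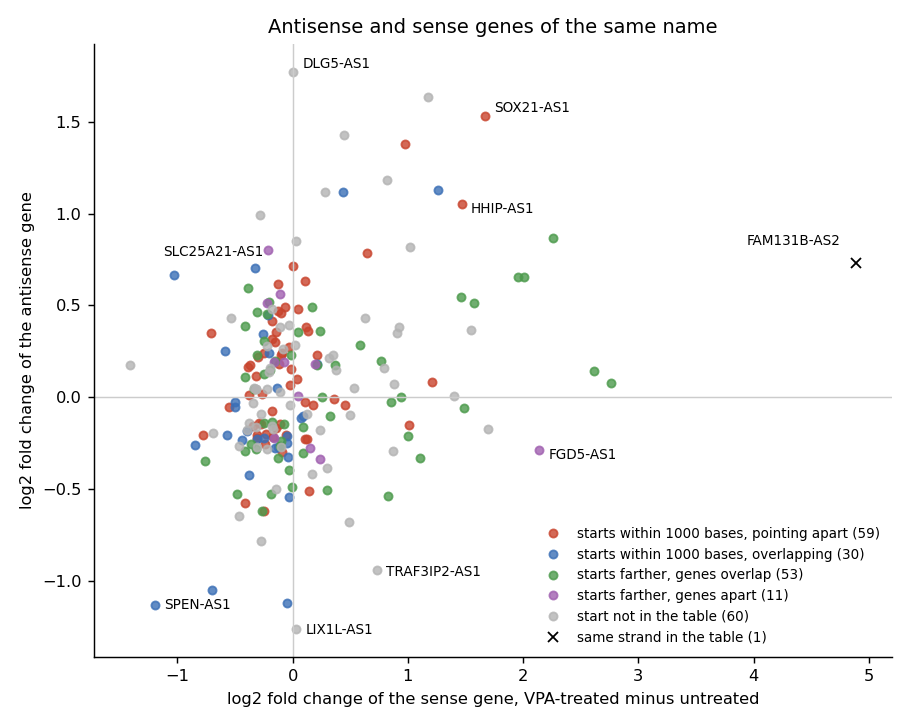
Each point is 1 of the 214 tested pairs, with the log2 fold change of the sense gene on the horizontal axis and of the antisense gene on the vertical axis, coloured by how the 2 starts lie. The sense genes spread to 4.89 and the antisense genes between -1.26 and 1.77.

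The sense gene with the largest rise was FAM131B, which was named after its values were seen. It counted 15.5, 13.6 and 11.5 in CTRL and 402, 403 and 415 in VPA, a log2 fold change of 4.89, while FAM131B-AS2 rose by 0.73 from 57.1 ± 2.59 to 94.7 ± 15.1. The reference places FAM131B-AS2 and FAM131B on the same strand.

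FGD5-AS1 (chr3:14942779-14948441, minus strand) led the pairs that moved in opposite directions and had the highest count of the antisense genes. It counted 2766, 2934 and 2667 in CTRL and 2282, 2284 and 2293 in VPA, a log2 fold change of -0.29 (edgeR adjusted p = 6.09e-06). FGD5, a guanine nucleotide exchange factor for CDC42 known from endothelial cells, rose by 2.14, from 16.6, 25.1 and 24.1 to 93.9, 95.4 and 101. The ratio fell from between 110.5 and 167 to between 22.6 and 24.3. The spans of the 2 genes do not overlap.

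TRAF3IP2-AS1 (chr6:111483472-111602295, plus strand) fell by 0.94 ± 0.10 on the log2 scale, from 189, 205 and 185 to 103, 101 and 97.7. TRAF3IP2, the adaptor of the IL-17 receptor, rose by 0.73, from 167, 204 and 168 to 299.9, 297 and 296. The 2 genes were counted at about the same level in CTRL, with ratios of 1.01 to 1.14, and the ratio in VPA was 0.330 to 0.345. None of the antisense exon bases lie under TRAF3IP2 exons.

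SLC25A21-AS1 (chr14:37172026-37173794, plus strand) rose by 0.67, from 42.4, 42.9 and 34.6 to 64.2, 59.7 and 67.0. SLC25A21, a mitochondrial carrier of oxodicarboxylates, fell by 1.03 on the log2 scale, from 84.9, 80.6 and 87.1 to 28.7, 51.1 and 44. The ratio went from between 0.398 and 0.532 to between 1.17 and 2.23, so that the antisense gene was the lower of the 2 counts in CTRL and the higher in VPA.

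LIMD1-AS1 rose by 0.99, from 32.1, 31.4 and 24.1 to 45.0, 62.6 and 67.0, while LIMD1, a LIM domain scaffold, was at -0.29. THAP7-AS1 rose by 0.71, from 102, 74.3 and 91.3 to 152, 138 and 147, while THAP7, a chromatin-bound zinc finger protein, was at -0.33. IQCH-AS1 fell by 0.54 on the log2 scale, from 51.8, 53.4 and 60.9 to 34.5, 42.4 and 37.3, while IQCH rose by 0.82. With DESeq2, IQCH-AS1 did not pass (adjusted p = 0.0738). ADGRL1-AS1 fell by 0.68, from 44.5, 47.1 and 48.3 to 24.9, 38.5 and 23.9, while the adhesion receptor gene ADGRL1 rose by 0.49.

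CCDC183-AS1 was the least certain of these, at 153, 117 and 111 in CTRL and 116, 102 and 86.2 in VPA, with overlap of the groups, a log2 fold change of -0.33 (edgeR adjusted p = 0.0405). The log2 fold change of CCDC183-AS1 no longer passed with DESeq2, the upper quartile, library totals, at least 10 counts in every library, or without CTRL replicate 1, VPA replicate 2 or VPA replicate 3, with adjusted p between 0.0600 and 0.270. CCDC183 rose by 1.11. These 8 pairs were chosen for the size of the difference between the antisense and the sense change, so their ratios are a description and were not tested.

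**Figure D4:**
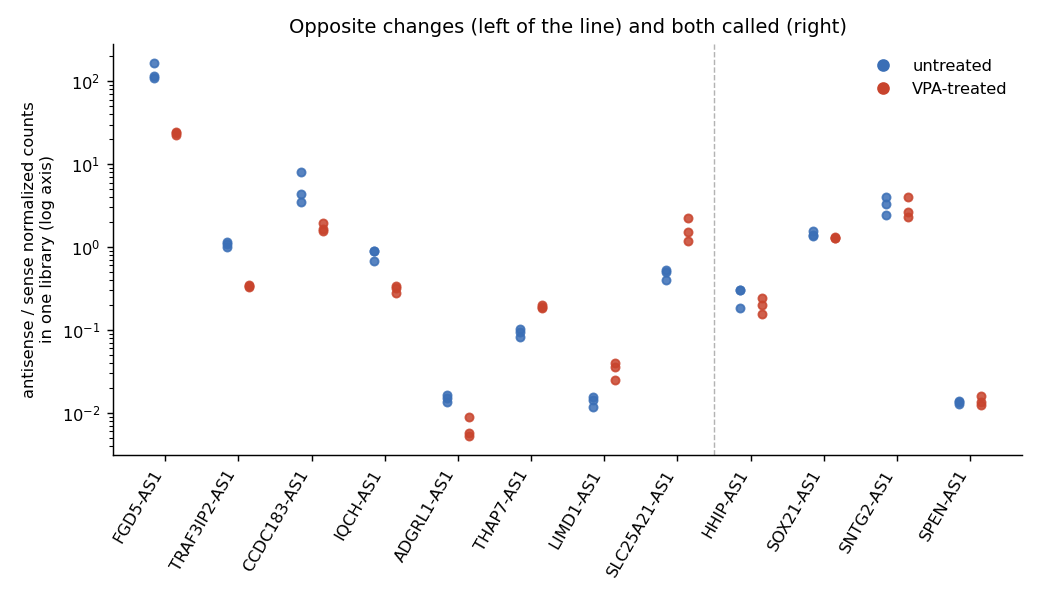
Ratio of antisense to sense normalized counts in each library on a log axis, for the 8 pairs with opposite changes (left of the dashed line) and 4 of the 5 pairs with both genes called (right). The ratios on the left stand apart because these pairs were chosen for opposite changes, and on the right they range from 0.0125 in the pair of SPEN to 4.05 in that of SNTG2.

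The 8 antisense genes with the highest counts, FGD5-AS1 among them, each changed by less than the threshold on size. OIP5-AS1, a lncRNA also called Cyrano, counted 1256, 1291 and 1267 in CTRL and 1061, 1032 and 1026 in VPA, a log2 fold change of -0.29, and OIP5, a centromere gene, was at -0.41. TP73-AS1 was at -0.18 and the p53 family gene TP73 at -0.40. VPS9D1-AS1 counted 1457, 1247 and 1242 in CTRL and 960.2, 968 and 891 in VPA, a change of -0.48, with VPS9D1 at -0.01. EMC3-AS1 was at -0.24 and WARS2-AS1 at -0.18, both past the adjusted p, and ARRDC1-AS1 at -0.14 and GTF3C2-AS2 at 0.12 did not pass. Scaled by library totals, EMC3-AS1, WARS2-AS1 and TP73-AS1 were at -0.10, -0.05 and -0.05 and did not pass, while GTF3C2-AS2 passed at 0.25. EMC3-AS1, WARS2-AS1, ARRDC1-AS1 and GTF3C2-AS2 also changed sides of the adjusted p when single libraries were left out. Per kilobase of exon, the order was not that of the counts. The mean was 1163 normalized counts for EMC3-AS1, 643 for VPS9D1-AS1, 419.8 for FGD5-AS1 and 51.6 for OIP5-AS1. On that scale the antisense gene stood above its sense gene in 69 of 227 pairs. The length merges the exons of all annotated transcripts of a gene, 534 bases for EMC3-AS1 and 22370 for OIP5-AS1. The order and the 69 pairs thus depend on how many exons are annotated.

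The RNA exosome and the adaptors that bring nuclear RNA to it were listed as the machinery that degrades antisense RNA. All 29 genes of the list were tested, and 0 were up and 0 down at both thresholds by edgeR's quasi-likelihood test, while at the adjusted p alone 1 was higher and 21 lower, beside 32.9% and 30.0% of all tested genes, with a median log2 fold change of -0.21. DESeq2 also gave 0 up and 0 down, and an unadjusted p under 0.05 in edgeR held for 1 higher and 22 lower. Scaled by library totals, where the median of all genes is 0.14, 4 were higher and 9 lower, with a median of -0.08. NRDE2, which restrains the exosome adaptor complex, was at -0.45, SRRT, a partner of the cap-binding complex, at -0.33 and EXOSC10, a nuclease of the nuclear exosome, at -0.32. ZFC3H1, which links polyadenylated nuclear RNA to the exosome, was the 1 that was higher, at 0.14.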

How the data were processed

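RNA-seq of HEK293T cells was analysed, with 3 untreated (CTRL) and 3 VPA-treated libraries. The authors deposited raw counts per gene without normalization, made by STAR alignment to hg38 and htseq-count. The processing notes of the submitters name STAR 2.7.10b and HTSeq 2.0.1. The 5 summary lines were left out (reads off any gene 6.80% to 7.69%, ambiguous 1.97% to 2.10%, not unique 2.81% to 2.92%), and reads with several places were set aside, which lowers genes with near copies.

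All listed genes entered a fit by edgeR 4.0.16 under R 4.3.3 (TMM, filterByExpr with a count minimum of 10, robust quasi-likelihood fit on condition, prior count 0.125, Benjamini-Hochberg adjustment). The filter kept 15298 genes and all 232 antisense genes. The SE was taken as the log2 fold change over the square root of its F statistic. With TMM factors, counts were scaled to the mean library. The spread between libraries of a condition, which edgeR calls the biological coefficient of variation (BCV), was 3.83%. Whether it holds differences between cultures is not known from the labels. Replicates differed by more than sampling noise (chi-square per gene 1.62 to 4.70).

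Sense genes were matched by symbol. Starts, coordinates and sequences are from RefSeq on GRCh38.p14, exon lengths and overlap from GENCODE 44, which may not be the annotation counted. Named were the 12 largest rises and 12 largest falls past the adjusted p, the 8 highest counts, the 8 most opposite pairs, pairs with both genes called, the genes at the count limit, and for the exosome list the 3 smallest p. The gene that the rule also named and the text omits is not reported here. Members, lists and alternatives were chosen with earlier results of these data known. Alternatives were DESeq2 1.42.0, other scalings, filters, prior count (2) and thresholds, the replicate block, other count minima (100 and 500) and each library left out. On simulated counts of this comparison with 200 changed genes, edgeR called 200 over 15072 genes with 0 false calls. Recovery at the counts and fold changes of the antisense genes was not tested.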

Additional observations from a re-analysis of the deposited data

How the results depend on the processing

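DESeq2, DESeq2 size factors and no filter gave 13 antisense genes up and 4 down, as in the report. The up count was 10 to 14 with 1 library left out, 66 at the adjusted p alone, 5 with glmTreat, 28 with a raw sum of at least 100 and 2 with at least 500. The down count was 4 to 5 with 1 library left out, 1 with library totals, 39 at the adjusted p alone, 0 with glmTreat and 2 with a raw sum of at least 500. With the HOX antisense genes and EPB41L4A-AS1 kept in it was 6. The count of higher genes was 43 with DESeq2 and 53 to 64 with 1 library left out, and that of lower genes 26 with DESeq2, 19 with library totals and 33 to 38 with 1 library left out. Pairs in the same direction numbered 28 with DESeq2 and 34 to 38 with 1 library left out. Opposite pairs numbered 14 with DESeq2, 17 with library totals and 21 to 26 with 1 library left out. The cause of these shifts was not tested beyond the fewer libraries or the changed limit itself.

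Same-numbered libraries deviated together with r = 0.33, 0.09 and 0.24, and different-numbered ones with r between -0.26 and 0.05. The labels do not say whether the numbers pair the libraries. The main fit left the numbers out, and whether they pair the libraries was not tested. With the replicate block, 13 genes were up and 4 down, 71 higher and 49 lower, with 51 same-direction and 33 opposite pairs.

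Of 1035 comparisons over 74 named genes, 980 kept direction and side, 22 no longer passed, 13 newly passed and 20 reversed, all in sense genes near 0. With library totals, ARRDC1 was at 0.056, EMC3 at 0.028, IPO9 at 0.079, ST20 at 0.099 and VPS9D1 at 0.12, and with the upper quartile IPO9 was at 0.013, ST20 at 0.033 and VPS9D1 at 0.056. VPS9D1 was at 0.013 with at least 10 counts in every library. The log2 fold change of DLG5 was -0.019 with DESeq2, -0.016 with no filter and -0.0082 with DESeq2 size factors. Without 1 library at a time, the log2 fold change of DLG5 ranged from -0.038 to 0.027, the log2 fold change of LIX1L from -0.038 to 0.063, ST20 from -0.10 to 0.017 and VPS9D1 from -0.20 to 0.11. The log2 fold changes of the up-regulated genes had SEs from 0.0898 for SOX21-AS1, the highest in count, to 0.244 for INKA2-AS1.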

Other observations

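The antisense genes left out by name included 4 past the count minimum. HOXA-AS2 went from 47.0 to 21.8 normalized counts (log2 fold change -1.11) and HOXA-AS3 from 125 to 55.0 (-1.18). HOXB-AS3 went from 113 to 86.7 (-0.38) and EPB41L4A-AS1 from 302 to 231 (-0.38).

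MIF-AS1, named after its values were seen, had the largest spread relative to its mean in CTRL among the antisense genes above 100 normalized counts there, with 323, 267 and 156 in CTRL and 189, 134 and 112 in VPA. Its log2 fold change of -0.78 ± 0.33 did not pass (edgeR adjusted p = 0.0851), and its ratio to MIF, a cytokine gene counted at 14868 ± 1311 in CTRL, was 0.0197, 0.0186 and 0.0112.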
